A study of Homo sapiens with 17 samples.

Results

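The earliest response of YB5 cells to toyocamycin was described from 4 samples of a series of 17, namely the 2 toyocamycin libraries and the 2 DMSO libraries collected at 2 h. They were chosen by treatment and time label alone, and no measured value entered the choice. YB5 is a derivative of the human colon cancer line SW48 that carries an inserted green fluorescent protein reporter behind a hypermethylated viral promoter. Cells received toyocamycin, an adenosine analog made by Streptomyces, at 250 nM, or the solvent DMSO. Polyadenylated RNA was sequenced as paired ends, and replicate 1 of each treatment belonged to batch 1 and replicate 2 to batch 2. Each toyocamycin library was therefore set against the DMSO library of its own batch.

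The study asked whether toyocamycin acts on transcription through CDK9, the kinase of the positive transcription elongation factor P-TEFb. P-TEFb releases RNA polymerase II from its pause near the start of genes, and its own supply is held in check by a ribonucleoprotein that contains HEXIM1 and is capped by MEPCE. When transcription is blocked, messages with short half-lives are the first to be lost, and many of these encode transcription factors, feedback inhibitors and stress regulators. Messages for ribosomal proteins and metabolic enzymes usually persist for longer. Half-lives were not measured in these samples.

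The 4 libraries held between 15771958 and 20394942 reads assigned to genes, and 14491 of the 19141 genes in the table had enough counts to be tested. Mitochondrially encoded genes took 1.42% and 3.47% of the reads in the DMSO libraries and 1.77% and 2.65% in the toyocamycin libraries, so that this share rose in the pair of batch 1 and fell in that of batch 2. The cells carried epithelial markers at a high level. The 19 intestinal markers summed to between 3937 and 4658 counts per 1000000 reads (CPM) in each library (before TMM scaling), led by the keratins KRT8 and KRT18 and by EPCAM and CDH1, whereas CDX1 and TFF3 were at 0 in all 4 libraries and MUC2 and LGALS4 were below 1 CPM. The 17 markers of blood, vessel, connective tissue, liver and nerve cells summed to 17.1 and 7.11 CPM in the DMSO libraries and to 2.89 and 4.50 CPM in the toyocamycin libraries, with CD68, PECAM1, ALB and HBB at 0 throughout and the collagen gene COL1A1 the highest of them. None of the 14 that could be tested was called.

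After 2 h most of the called changes were falls. With edgeR's quasi-likelihood test, a batch term and a Benjamini-Hochberg adjusted p under 0.1, 1538 genes were lower with toyocamycin and 160 were higher, which is 10.6% and 1.10% of the genes tested. Rises made up 9.42% of the calls. Of the 1538 genes, 1488 had both toyocamycin libraries below both DMSO libraries, 596 had fallen at least 2-fold and 84 at least 4-fold. Of the 160 rises, 141 had libraries that did not overlap between the treatments. The genes were called on these same libraries, so this separation is not separate support. Its share over all genes tested was not counted. The median log2 fold change of all genes tested was 0.03, on a scale that TMM centres near 0. Without the replicate block, which is the batch term, 1220 genes were lower and 75 higher, so the count of rises depended on this term more than the count of falls. With either batch's pair alone, 639 to 914 genes were called lower and 32 to 59 higher. Such a fit holds 1 pair of 2 h and takes its spread from the replicated libraries of 72 h, so the lone pair is assumed to vary as they do. Fold changes here are relative to the other genes of a library. A loss of RNA shared by all genes would not be seen, and in bulk RNA fewer cells and less RNA per cell cannot be told apart. Nothing in the labels ties each library to a culture of its own, so p-values measure the spread between libraries. In the main fit, too, most of that spread came from the replicated libraries of 72 h, all of batch 1. The 4 libraries of 2 h with a batch term leave 1 residual degree of freedom. Standard errors and p-values therefore assume that the libraries of 2 h vary as those of 72 h do.

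The pairs moved broadly together for genes of moderate or high level, but not in every respect described below. This group held the 9765 annotated genes with a mean of at least 5 CPM in DMSO. Across them the log2 fold changes of the pairs had a Pearson r of 0.80 and a Spearman rank correlation of 0.63. The genes share libraries and are not independent. In this group 293 genes fell at least 2-fold in both pairs and all 293 were called. A single gene, PNN, rose at least 2-fold in both pairs. The called share in this group was 14% for falls and 0.840% for rises.

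**Figure D1:**
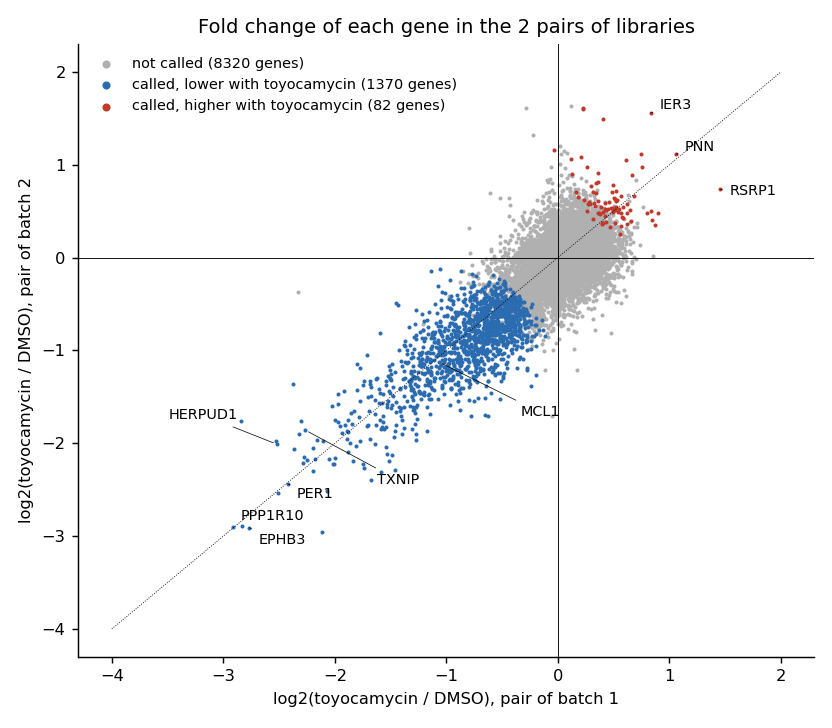
Each point is a gene with a mean of at least 5 CPM in DMSO, plotted by its log2 ratio of toyocamycin to DMSO in the pair of batch 1 (x axis) and of batch 2 (y axis), with called genes in colour. The called falls extend along the dotted line of equal change to about -2.91 in both pairs for PPP1R10, while the called rises stay close to the origin.

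The leading falls were ranked by the smaller of the pair fold changes, among called genes with at least 10 CPM in DMSO. The first was PPP1R10, which encodes the nuclear PP1-targeting subunit PNUTS that acts with RNA polymerase II at the ends of genes (chromosome 6, 30600413 to 30618612, minus strand, GRCh38). It stood at 100 and 80.2 CPM in DMSO and at 12.9 and 10.3 CPM with toyocamycin. The arms were far apart, and the log2 fold change was -2.96 ± 0.15 (SE; adjusted p = 9.25e-10, edgeR). EPHB3, a receptor tyrosine kinase of intestinal crypts and a Wnt target (chromosome 3, 184561785 to 184582408, plus strand), went from 49.3 and 37.8 CPM to 6.82 and 4.60 CPM, a 7.67-fold fall. TIGD3, a gene derived from a transposase (chromosome 11), went from 24.0 and 15.9 CPM to 2.94 and 1.71 CPM. The smallest change of any pair among these 3 genes was -2.77 on the log2 scale. WDCP, a WD-repeat gene, and ZSWIM1, a gene with a SWIM zinc finger, were at 11.3 ± 0.79 and 12.9 ± 1.6 CPM in DMSO (SD, n = 2) and fell 5.52-fold and 4.79-fold.

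**Figure D2:**
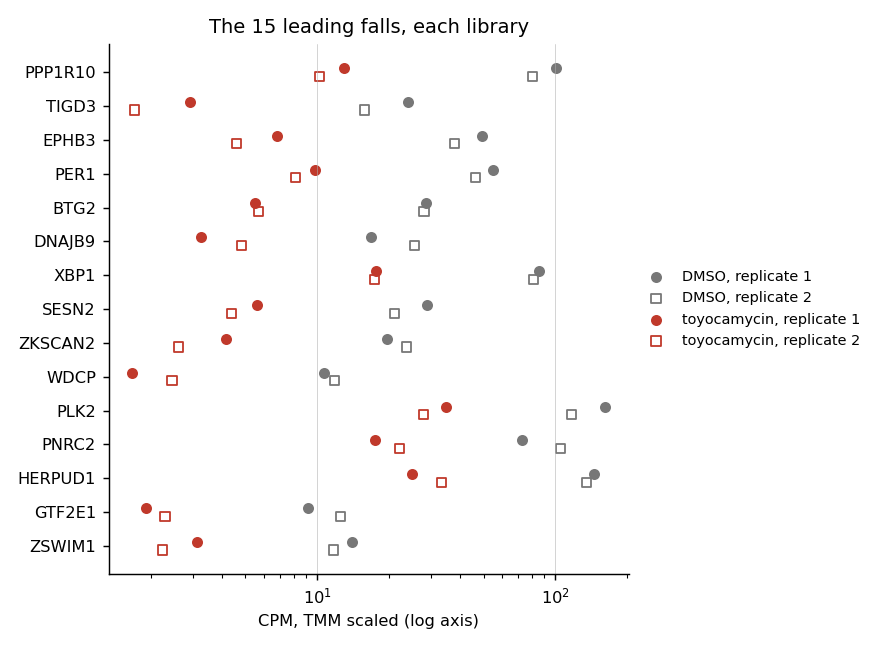
TMM-scaled CPM on a log axis for the 15 leading falls, with DMSO in grey, toyocamycin in red, replicate 1 as filled circles and replicate 2 as open squares. In every row both red points lie to the left of both grey points, and the spread within an arm runs from BTG2, at 28.6 and 28.1 CPM in DMSO, to genes such as TIGD3, at 24.0 and 15.9 CPM.

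Regulators of the stress of the endoplasmic reticulum held 3 of the first 15 places. XBP1, the transcription factor that is activated by unconventional splicing in the unfolded protein response, was at 85.6 and 80.7 CPM in DMSO and 17.6 and 17.4 CPM with toyocamycin, a 4.75-fold fall (adjusted p = 1.66e-08). Gene counts do not tell its spliced from its unspliced form. HERPUD1, which helps to remove misfolded proteins from the reticulum, was at 146 and 135 CPM against 25.0 and 33.2 CPM. DNAJB9, a co-chaperone of that compartment, was at 16.8 and 25.7 CPM against 3.27 and 4.81 CPM. These falls did not extend to the folding machinery as a whole. Of 29 genes of IRE1-XBP1 signalling and folding, 4 were lower (13.8%, near the 10.6% of all genes), and their median was -0.03. The fourth of them was HSPA5, the main chaperone of the reticulum, which fell from 1444 and 1255 CPM to 869 and 925 CPM, a call that was lost with the pair of batch 2 alone.

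The targets of ATF4 and CHOP, the amino acid and integrated stress regulators, were called more often, with 8 of 23 lower (34.8%, median -0.46). CHAC1, which degrades glutathione, went from 9.49 and 5.38 CPM to 0.898 and 1.23 CPM, with a log2 fold change of -2.80 ± 0.37. DDIT4, an inhibitor of mTORC1, went from 8.46 and 7.91 CPM to 2.00 and 1.34 CPM, and SESN2, another mTORC1 inhibitor, from 28.9 and 21.1 CPM to 5.59 and 4.38 CPM. PPP1R15B is counted among these 23 genes although it encodes the constitutive cofactor of the phosphatase of eIF2α. It fell by 1.36 on the log2 scale. Stress genes of the cytosol moved less as a group. Of 20 heat shock and chaperone genes, 3 were lower (15%, against 10.6% of all genes) and 1 higher (5%, against 1.10%). Their median of 0.05 changed sign with 1 of the alternative scalings. DNAJB1 fell by 1.23, whereas the small heat shock gene HSPB1 changed by 0.46 (adjusted p = 0.056), a call that was lost without the replicate block and with either pair alone.

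Immediate early genes, which respond to growth signals without new protein synthesis, were lower in 22 of 42 cases (52.4%) and higher in 2, with a median of -0.51. FOS went from 340 and 208 CPM to 106 and 82.5 CPM, and NR4A1, an orphan nuclear receptor, from 123 and 78.7 CPM to 47.1 and 29.7 CPM. BTG2, an antiproliferative gene that recruits deadenylases, and PLK2, a polo-like kinase, were among the leading falls. PLK2 was at 162 and 117 CPM against 34.8 and 27.9 CPM. Like FOS, 35 of these 42 genes were higher in the DMSO library of batch 1 than in that of batch 2, against 45.1% of all genes tested, and the part of this difference in the result was not tested. The family did not move as one. EGR1, a zinc finger factor, was at 1147 and 701 CPM in DMSO and 947 and 799 CPM with toyocamycin, and its fold change was not called (adjusted p = 0.95). IER2, another early response gene, was not called either (adjusted p = 0.94). MYC, for which the pairs differed, was at 235 and 99.8 CPM against 113 and 91.6 CPM, so that the arms overlapped, and its call (log2 fold change -0.60, adjusted p = 0.035) was lost without the replicate block and without the pair of batch 1.

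Feedback inhibitors of MAP kinase signalling were lower in 11 of 23 cases (47.8%, median -0.39). DUSP1, a phosphatase that switches off MAP kinases, went from 20.5 and 13.9 CPM to 5.18 and 3.79 CPM. Its relatives DUSP5 and DUSP7 fell by 1.45 and 1.11 on the log2 scale, and 7 of 20 DUSP genes were lower in all, with 1 higher. ERRFI1, an inhibitor of the EGF receptor, fell by 1.21. SPRY4, a sprouty protein that also restrains this pathway, was the 1 member that rose and is described below.

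Other signalling targets showed the same mixture of sharp falls and unmoved members. Of 38 labile regulators of signalling (SOCS, TOB, PIM, cyclin and arrestin-domain genes), 18 were lower and none higher (47.4%, median -0.44). TXNIP, which binds thioredoxin and limits glucose uptake, went from 183 and 174 CPM to 37.7 and 47.7 CPM, a log2 fold change of -2.08 ± 0.16. Its relative ARRDC4 and the antiproliferative gene TOB2 fell by 1.36 and 1.38, and the cell cycle phosphatase CDC25A by 1.48. Of 29 p53 targets, 12 were lower (41.4%), among them CDKN1A, the inhibitor of cyclin-dependent kinases, which fell by 1.05. PLK2, BTG2 and SESN2 are also in that list.

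Of 21 NF-kappaB targets, 6 were lower (28.6%), and the interferon regulator IRF1 fell from 15.2 and 13.2 CPM to 3.43 and 3.58 CPM. Of 20 genes of the BCL2 family and the apoptosis inhibitors, 5 were lower (25.0%). MCL1, an antiapoptotic protein of very short life, was at 222 and 231 CPM in DMSO and 106 and 105 CPM with toyocamycin, with a log2 fold change of -1.10 ± 0.13. BIRC3, an inhibitor of apoptosis, fell by 1.82, and BAK1, a proapoptotic effector, by 0.91, so falls were present on both sides of this balance.

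Wnt targets were lower in 7 of 19 cases (36.8%). AXIN2, the feedback scaffold of the pathway, went from 424 and 391 CPM to 229 and 214 CPM, and SOX9, a factor of crypt progenitor cells, from 403 and 243 CPM to 219 and 162 CPM, a call that was lost with the pair of batch 2 alone. Targets of BMP, TGF-beta and Notch signalling had 4 of 18 lower and 1 higher, with a median of 0.05 that changed sign with the scaling. ID1, a BMP-induced inhibitor of differentiation, was not called (adjusted p = 0.61). BAMBI, a decoy receptor, fell by 0.75 on the log2 scale, while SMAD7, the inhibitory SMAD, changed by 0.55 on the log2 scale (adjusted p = 0.024), which was not called without the replicate block or with either pair alone. Of the 16 tested intestinal markers, 2 were lower and 14 were not called (12.5% lower, median 0.13 and -0.04 in the pair of batch 1). The lower ones were the transcription factors CDX2 and ELF3, which fell by 0.59 and 1.25, and the call of CDX2 was lost with either pair alone.

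The components of the elongation machinery itself were among the most affected lists. Of 20 genes of P-TEFb, its inhibitory complex and the super elongation complex, 10 were lower and none higher (median -0.51). MEPCE, the capping enzyme of the 7SK RNA, went from 207 and 178 CPM to 56.1 and 41.4 CPM, a log2 fold change of -1.99 ± 0.16. HEXIM1, the inhibitor held in the same particle, went from 129 and 99.5 CPM to 63.1 and 64.2 CPM, a call that was lost with the pair of batch 2 alone. CCNT1, the cyclin partner of CDK9, and AFF4, the scaffold of the super elongation complex, fell by 0.92 and 1.02, and the bromodomain gene BRD2 by 1.09. The list thus lost messages of both activating and inhibiting members.

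Lists of other steps of transcription were called less often. Of 27 genes of pausing, termination and the PP1 complex, 5 were lower (18.5%), and next to PPP1R10 these included the termination factors PCF11, SCAF8 and SCAF4, which fell by 1.02, 1.01 and 0.77. Of 33 genes of Integrator and 3′ end processing, 7 were lower and 1 higher, and CSTF1, INTS5 and CLP1 fell by 1.27, 1.20 and 1.23. Of 33 Mediator genes, 8 were lower and 1 higher, and MED18 and MED13 fell by 1.58 and 1.16. GTF2E1, the large subunit of the general factor TFIIE and one of the 15 leading falls, was at 9.20 and 12.6 CPM in DMSO and at 1.92 and 2.30 CPM with toyocamycin. The medians of these 3 lists lay between -0.06 and 0.02, and those of the Integrator and Mediator lists changed sign with the scaling.

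Chromatin regulators were lower in many cases. Of 42 histone methyltransferases and demethylases, 19 were lower and none higher (45.2%, median -0.41), among them KDM6B, a demethylase of H3K27 that is itself inducible, which went from 39.8 and 29.6 CPM to 14.98 and 9.35 CPM. KDM2A fell by 1.05. Of 32 chromatin remodelers, 10 were lower and 1 higher, and CHD1, which acts on transcribed genes, fell from 42.3 and 56.3 CPM to 15.02 and 11.2 CPM.

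Zinc finger transcription factors made up the largest share of the falls by family. Of 376 tested genes named ZNF, 157 were lower and 2 higher (41.8%, median -0.63), and of 63 genes named ZBTB, ZSCAN or ZKSCAN, 33 were lower and none higher (52.4%, median -0.64). These encode sequence-specific repressors and other DNA-binding proteins. ZNF646 went from 34.3 and 31.8 CPM to 7.31 and 7.75 CPM, ZBTB9 from 25.9 and 25.3 CPM to 6.65 and 6.52 CPM, and ZKSCAN2 from 19.7 and 23.7 CPM to 4.16 and 2.62 CPM. The arms of these 3 genes were far apart, although the toyocamycin libraries of ZKSCAN2 differed. Genes of this family have similar coding sequences, and reads shared between members may not have been counted.

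Other families of transcription factors were called lower in smaller shares of their members. Of 22 KLF and SP genes, 6 were lower (27.3%, median -0.25), and SP4 and KLF4 fell by 1.82 and 1.08. Of 12 SOX genes, 4 were lower and 1 higher (33.3%), with a median of -0.68. The list was of low level, with a median of 1.29 CPM in DMSO. Its median was only -0.09 in the pair of batch 1 and -0.41 in that of batch 2. Of 35 forkhead genes, 6 were lower (17.1%), and FOXJ2 fell by 1.35. Of 35 HOX genes, 4 were lower (11.4%, near the 10.6% of all genes) and 3 higher (8.57%, against 1.10% of all genes). Their median DMSO level was 5.82 CPM, and their median of 0.02 turned negative with the pair of batch 1 alone. HOXB4 was among those that rose.

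The circadian clock lost several of its negative arms. Of 18 tested genes, 7 were lower and none higher (38.9%, median -0.53). PER1, a clock repressor, went from 54.8 and 46.2 CPM to 9.84 and 8.12 CPM, a log2 fold change of -2.49 ± 0.19. PER2 went from 14.6 and 10.8 CPM to 4.33 and 2.99 CPM, CRY2 from 33.0 and 27.1 CPM to 11.3 and 10.7 CPM, and the output factor TEF fell by 1.07.

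Most lists of protein and RNA turnover had shares of falls above the 10.6% of all genes. Of 47 USP deubiquitinases, 11 were lower (23.4%), led by USP37 and USP42, which fell by 1.76 and 1.58. Of 71 RNF genes, 15 were lower and 1 higher, and RNF111 fell by 1.49. Of 54 TRIM genes, 11 were lower, and TRIM36 fell by 2.26. Of 29 KLHL genes, 9 were lower and 1 higher, of 18 KCTD genes 4 were lower, and of 57 F-box genes 8 were lower and 2 higher, and FBXO30 fell by 1.62. The share of F-box genes, 14%, was close to the background. Of 51 genes of RNA decay, 10 were lower, including the decapping cofactor DCP1A, which fell by 1.08. PNRC2, an adaptor between UPF1 and decapping, was among the leading falls, at 72.3 and 106 CPM against 17.5 and 22.1 CPM.

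Homologous recombination and checkpoint genes were lower in 8 of 37 cases (21.6%). PALB2 and BARD1, partners of the BRCA proteins, fell by 1.60 and 1.38, and BRCA2 went from 12.4 and 17.6 CPM to 7.72 and 5.08 CPM, a call that was lost without the pair of batch 2. Lists of DNA replication and of mitosis were near the background, at 6 of 45 and 5 of 35 lower. CDC6, which loads the replicative helicase, and CCNA2, the cyclin of S phase and G2, fell by 1.02 and 0.77, and the call of CCNA2 was lost without the pair of batch 2.

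Lists of constitutive functions held few falls. None of 82 cytosolic ribosomal protein genes was lower and 6 were higher (7.32%, against 1.10% of all genes), with a median of 0.20. None of 76 nuclear genes of oxidative phosphorylation was lower and 4 were higher (5.26%, median 0.26), and 1 of 77 mitochondrial ribosomal protein genes was lower and 1 higher. No gene was called in either direction among 37 proteasome, 19 glycolytic and 6 metallothionein genes or among the 13 mitochondrially encoded ones, whose median was 0.37 in the pair of batch 1 and -0.35 in that of batch 2. Of 66 genes in the list of translation initiation and elongation factors, 3 were lower, namely EIF1AD, EIF2AK3 and EIF4ENIF1. As a kinase gene, EIF2AK3 does not itself encode such a factor, and whether the other called genes do was not examined. Of 42 replication-dependent histone genes, which mostly lack a poly(A) tail, 1 was higher. Median DMSO levels were 710, 269 and 125 CPM for the cytosolic ribosomal protein, glycolytic and proteasome genes. Of all genes above 200 CPM 3.52% were called lower, and from 100 to 200 CPM 6.63%. Medians were 54.4 CPM for oxidative phosphorylation and 36.7 CPM for mitochondrial ribosomal proteins. Shares called lower were 12.2% from 50 to 100 CPM and 16.9% from 20 to 50 CPM. Histone genes had a median of 0.426 CPM. The part of level was not tested.

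Membrane and cytoskeletal families had small shares of falls. Of 269 solute carriers, 8 were lower and 1 higher (2.97%), led by SLC38A2, an amino acid transporter regulated by ATF4, which went from 113 and 148 CPM to 46.2 and 45.8 CPM. Of 46 SLC25 carriers of mitochondria, 2 were lower, and SLC25A25 fell by 1.29. The lists of RAB GTPases, tubulins, keratins and clustered protocadherins had 4 of 55, 1 of 19, 1 of 24 and 0 of 34 lower, with 1 protocadherin higher. The median DMSO level was 2.61 CPM for keratins and 0.169 CPM for protocadherins, and of all genes with up to 1 CPM only 0.787% were called lower. Outside these families, 4 of 28 cholesterol and fatty acid genes were lower (14.3%, against 10.6% of all genes tested). Several lists share members, and the counts of different lists are therefore not independent.

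**Figure D3:**
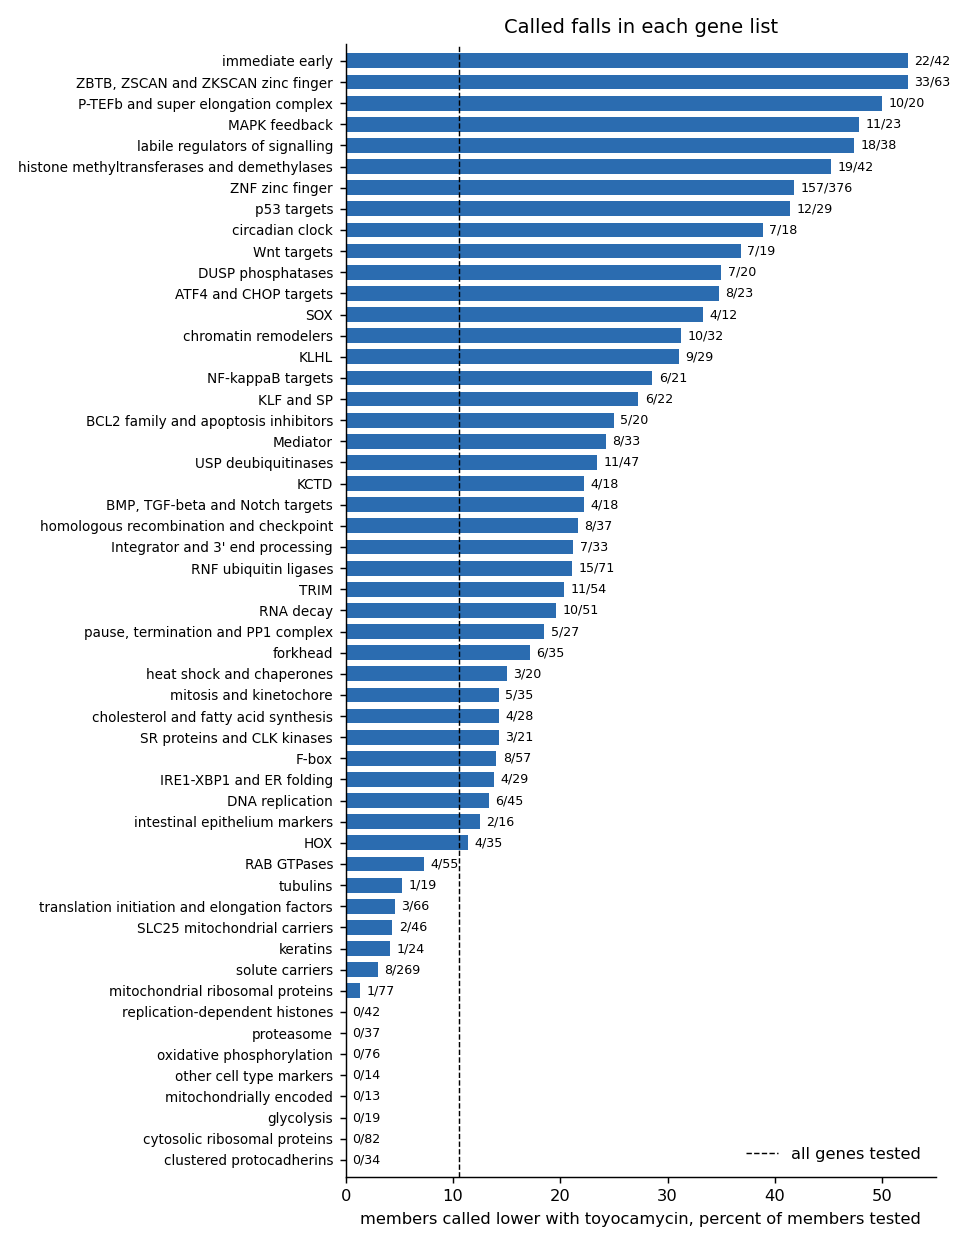
Bars give the percentage of tested members that were called lower with toyocamycin in each gene list with at least 10 tested members, with the numbers beside the bars, and the dashed line marks the 10.6% of all genes tested. Zinc finger, immediate early and elongation lists lie between 41.8% and 52.4%, while ribosomal, oxidative phosphorylation and proteasome lists are at 0 of 82, 0 of 76 and 0 of 37.

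Among gene structures, the density of splice junctions separated the falls most. Junctions of the canonical transcript were counted per kb of coding sequence, in the genes with at least 5 CPM in DMSO. With up to 2 junctions per kb, 277 of 708 genes were lower (39.1%), with 2 to 4 per kb 29.5%, with 4 to 6 per kb 18.0%, with 6 to 8 per kb 7.69%, with 8 to 10 per kb 3.88%, and above 10 per kb 22 of 836 (2.63%). The called share thus fell at every step from the second bin on. Genes without any junction were lower in 52 of 160 cases (32.5%), among them HEXIM1 and JUN, whose call was lost without toyocamycin replicate 2. The medians moved in the same order in each pair, from -0.25 and -0.36 with up to 2 junctions per kb to 0.13 and 0.16 above 10 per kb. Without genes named ZNF, ZBTB, ZSCAN or ZKSCAN the shares were 35.7% with up to 2 junctions and 2.64% above 10. The bins of this measure were chosen after the values had been seen.

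The number of exons alone gave a flatter picture. Of genes with 1 exon 32.5% were lower, of those with 2 exons 28.6%, of those with 3 to 5 exons 16.9%, and of those with 6 or more about 12%, the bins of 6 to 10, 11 to 20 and over 20 exons lying between 12.02% and 12.5%. Called shares differed little with the length of the gene, lying between 12.2% and 15.4% in all 7 bins of span from under 5 kb to over 200 kb. The pairs differed in their medians. From under 5 kb to over 200 kb the median went from 0.14 to -0.11 in the pair of batch 2 and from 0.05 to 0.09 in that of batch 1. With up to 4 junctions per kb, 31.9% of genes spanning up to 20 kb and 30.5% of those spanning over 100 kb were lower. With more than 8 per kb these shares were 2.36% and 5.74%.

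**Figure D4:**
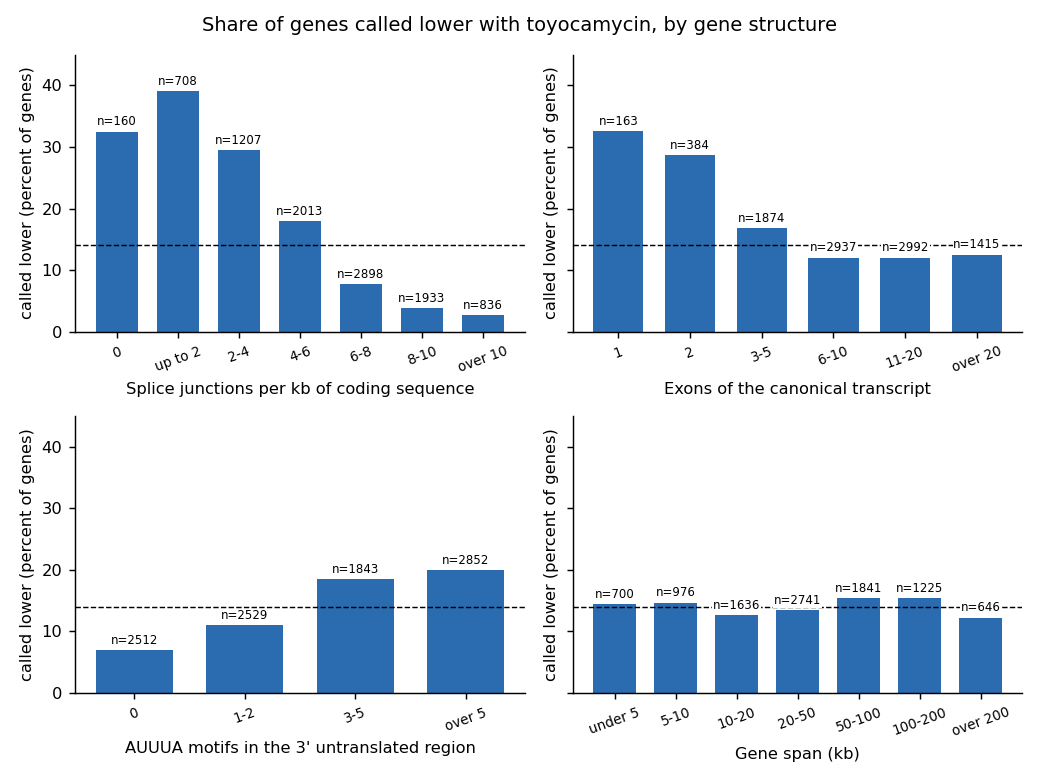
Bars give the percentage of genes called lower with toyocamycin among genes with at least 5 CPM in DMSO, binned by splice junctions per kb of coding sequence, exons, AUUUA motifs and gene span, with the number of genes above each bar. The dashed line is the 14% of all these genes, which the bars cross steeply for junction density and hardly leave for gene span.

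The AUUUA pentamer is the core of the AU-rich elements that mark many unstable messages. Counted on the transcript strand only, overlaps included, it was found in the 3′ untranslated region of 70.2% of 14377 tested genes, so its presence is common. Among genes with at least 5 CPM in DMSO, 7.01% of those without it were lower, 11.03% with 1 to 2 copies, 18.5% with 3 to 5 and 19.9% with more than 5. Longer regions hold more copies, and the share also went from 5.08% for regions up to 250 bases to 18.9% above 4000 bases. The contrast in called shares was present at both ends of junction density. With up to 4 junctions per kb, 22.9% of genes without the motif and 39.6% with more than 5 copies were lower. With more than 8 per kb these shares were 1.36% and 5.83%. The pair medians agreed in direction only at the low end. With up to 4 junctions per kb they went from -0.12 to -0.24 in batch 1 and from -0.11 to -0.44 in batch 2. With more than 8 per kb they went from 0.12 to 0.15 in batch 1 and from 0.22 to -0.07 in batch 2.

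Sequences with at least 2 AUUUA motifs within 30 bases were present in 7 of the 30 leading falls and rises. Other genes were not searched for them, so this count cannot be read as many or few. The sequences of 4 falls and 1 rise are shown to make plain that the motif occurs on both sides. They are given as DNA, 5′ to 3′ on the strand of the gene, with each motif in capitals (GENCODE 44, GRCh38).
DNAJB9 (fall, chr7:108574756-108574785, plus strand): aaatgaATTTAttctgttatATTTAtgtaa
XBP1 (fall, chr22:28794582-28794611, minus strand): gtgctttctccATTTATTTAaaactaccca
PLK2 (fall, chr5:58454054-58454083, minus strand): tATTTAttacagcccaaagagcagtATTTA
HERPUD1 (fall, chr16:56944305-56944334, plus strand): cccaaATTTAaATTTAgtaaATTTAgtggt
IER3 (rise, chr6:30743648-30743677, minus strand): taattaatATTTAtatgtATTTAtgtacgt
The first fall, PPP1R10, has no AUUUA in its 3′ untranslated region, nor have EPHB3, TIGD3, SESN2 and ZSWIM1. The longer motif UUAUUUAUU was found in 8.94% of tested genes, and with at least 5 CPM in DMSO 20.6% of the genes that hold it were lower against 13.3% of the others.

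Level, length and base composition moved with these shares. Among genes with at least 5 CPM in DMSO, called falls were fewest among abundant messages, at 3.52% above 200 CPM against 18.2% between 10 and 20 CPM. They were fewer among short coding sequences, at 3.25% up to 500 bases against 22.2% between 3000 and 5000 bases. By GC content they went from 16.3% of transcripts with up to 40% GC to 5.65% above 65%. The pairs differed in this respect, since the median of the lowest GC bin was 0.08 in the pair of batch 1 and -0.17 in that of batch 2. The part of each property in the others was not tested.

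Few genes rose, and the rises were small wherever the gene was well expressed. Of the 160, 59 had a mean below 1 CPM in DMSO and 36 had at most 3 counts in each DMSO library, for which no fold change is given. Of the 82 with at least 5 CPM, 3 rose at least 2-fold, namely PNN, IER3 and RSRP1, and the median log2 fold change was 0.53. PNN encodes pinin, a protein of splicing complexes and of the desmosome (chromosome 14, 39175183 to 39183220, plus strand). It was at 64.9 and 71.0 CPM in DMSO and at 136 and 154 CPM with toyocamycin, and the arms were well apart. The log2 fold change was 1.09 ± 0.15 (SE; adjusted p = 3.75e-05, edgeR).

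**Figure D5:**
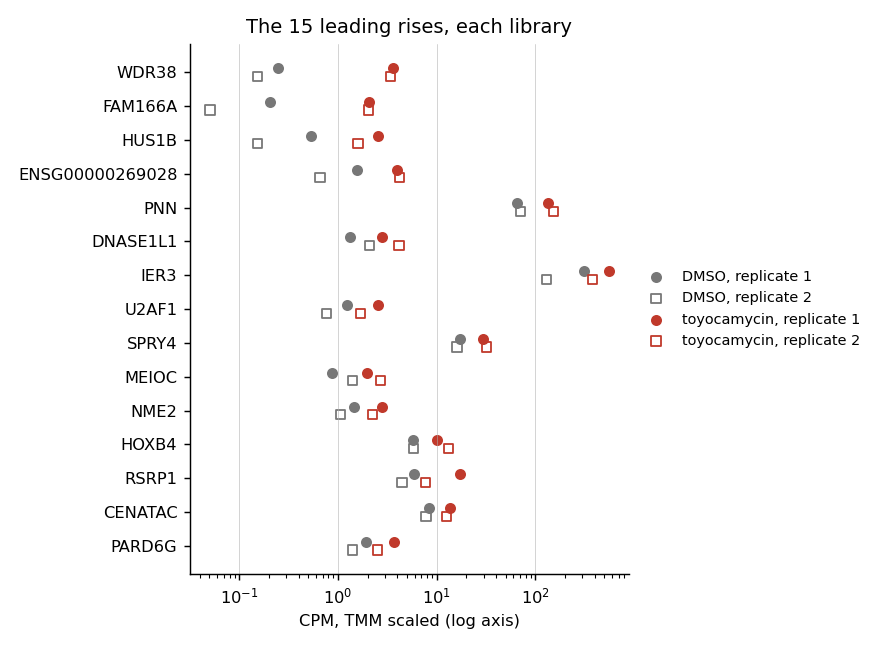
TMM-scaled CPM on a log axis for the 15 leading rises, with DMSO in grey, toyocamycin in red, replicate 1 as filled circles and replicate 2 as open squares. The means of 9 rows lie below 5 CPM in DMSO, and PNN and IER3 are the abundant genes, PNN moving from 64.9 and 71.0 CPM to 136 and 154 CPM.

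IER3, an immediate early gene that counters apoptosis (chromosome 6, 30743199 to 30744548, minus strand), was at 311 and 130 CPM in DMSO and at 554 and 382 CPM with toyocamycin. Both toyocamycin libraries lay above both DMSO libraries, although the DMSO libraries differed more from each other than is usual here (log2 fold change 1.19 ± 0.18, adjusted p = 1.27e-04). JUNB, an AP-1 component without introns, was at 282 and 136 CPM against 431 and 283 CPM, so that the arms only just failed to overlap. SPRY4 was at 17.1 and 16.1 CPM against 29.2 and 32.2 CPM, and HOXB4 at 5.76 and 5.88 CPM against 10.0 and 13.3 CPM. These last rises were seen in both pairs and were not called with the pair of batch 1 alone, except that of IER3, which was.

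RSRP1, an arginine- and serine-rich protein, was at 5.97 and 4.46 CPM against 17.3 and 7.75 CPM, and most of its rise came from the pair of batch 1, without which it was not called. ARGLU1, which modulates splicing, was at 56.8 and 48.4 CPM against 87.7 and 72.3 CPM. CENATAC, a component of the minor spliceosome, was at 8.29 and 7.81 CPM against 13.6 and 12.7 CPM, and was not called with either pair alone. HNRNPA2B1, HNRNPH3 and PABPN1, which bind pre-mRNA or poly(A) tails, had log2 fold changes of 0.47, 0.48 and 0.54. ARGLU1 and the latter 3 genes were picked out after their values had been seen, and none of these 4 was called with a single pair. Among the 21 genes of the list of SR proteins and CLK kinases, SRSF7 alone was higher, by 0.37 on the log2 scale (adjusted p = 0.095) and not with either pair alone, and 3 were lower, of which CLK4, a kinase of SR proteins, fell by 1.71.

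The remaining leading rises were of low level. WDR38 had 6 and 3 counts in DMSO and 88 and 64 counts with toyocamycin, and FAM166A had 5 and 1 against 51 and 38. Each of them overlaps an abundant gene on the other strand, WDR38 the ribosomal protein gene RPL35 and FAM166A the tubulin gene TUBB4B. DNASE1L1, which was not called with either pair alone, and CENATAC likewise overlap RPL10 and RPS25. Whether counting used the strand is not given in the sources used here, and reads of such pairs cannot be told apart. Over all 160 rises, 35.6% overlapped a coding gene on the other strand, against 26.4% of all genes tested and 22.2% of the falls. The end of another gene lay within 5 kb upstream on the same strand for 19.4% of the rises, 13.8% of all genes and 9.62% of the falls.

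Near-identical copies of some risen genes are known, and how reads were shared between copies was not tested. U2AF1, which recognises the 3′ splice site, stood at only 1.24 and 0.761 CPM in DMSO, and NME2, a nucleoside diphosphate kinase, at 1.45 and 1.06 CPM. The ribosomal protein genes RPL23A and RPS15A, a family with many pseudogenes, rose from 44.6 and 44.1 CPM to 59.2 and 125 CPM and from 27.2 and 18.2 CPM to 31.9 and 56.2 CPM, with most of the rise in the pair of batch 2, without which neither was called. U2AF1 and NME2 were not called with either pair alone. The other leading rises, HUS1B, MEIOC, PARD6G and a gene known here only as ENSG00000269028, had at most 4.22 CPM in any library. Of these, MEIOC and PARD6G were not called with either pair alone, nor was ENSG00000269028 without the pair of batch 2.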

How the data were processed

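Gene counts were deposited by the authors as 1 table of unnormalized read counts per gene. They had aligned the reads to GRCh38 with STAR (2.7.5a, per the submitters' processing notes and the study's methods) and counted them per gene. A second deposited table holds the authors' own comparisons (fold changes and p-values) and was not used, and 1 column of the count table matched no sample and was not used. Counts were fitted with edgeR 4.0.16 (R 4.3.3): TMM scaling, the filterByExpr filter, a mean for each treatment and time over the 14 libraries of 2, 24, 48 and 72 h, and a batch term. The libraries of 10 h were left out, since labels and study differ on them. The quasi-likelihood test was two-sided, and genes with a Benjamini-Hochberg adjusted p under 0.1 were called, with no minimum fold change. The standard error was taken from the log2 fold change and its F statistic. With the batch term, leaving out 1 library of 2 h leaves the other pair.

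At 2 h the labels give replicate number and batch as one, so the samples are paired; the deviations of same-numbered libraries from their arm means had a correlation of 0.34 across 14491 genes. The level of a gene is given as CPM (counts per 1000000 reads, TMM scaled), except the marker sums, which are CPM of the library total, and the fold change of a pair as a log2 ratio after adding 0.5 CPM. Named genes are the 15 leading falls (at least 10 CPM in DMSO) and the 15 leading rises (at least 2 CPM and 10 counts with toyocamycin), ranked by the smaller pair fold change among called genes whose arms do not overlap and whose pairs move together, and up to 4 members of each list with the smallest p. EGR1, IER2, ID1, MYC, NR4A1, JUN, JUNB, HEXIM1, ARGLU1, HNRNPA2B1, HNRNPH3 and PABPN1 were added after their values were seen. The members, lists and tests were chosen with earlier results of these data known. Gene structure came from the canonical transcripts of GENCODE 44, which matched 19080 of 19141 genes. Counting error alone is covered by the floor of 3 counts. The script was tested on simulated data. DESeq2 1.42.0, other scalings, filters and models, and single pairs were tried as alternatives.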

Additional observations from a re-analysis of the deposited data

How the results depend on the processing

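Scaling by DESeq2 size factors or library size, the DESeq2 Wald test, dropping or tightening the low-count filter, and the edgeR 4 quasi-likelihood form kept both counts of calls within 1.5 times of 1538 lower and 160 higher. Scaling on mitochondrially encoded genes, whose share moved in opposite directions in the pairs, gave 417 lower and 31 higher. A minimum fold change of 1.5 gave 475 lower and 25 higher. Fits of the 4 libraries of 2 h alone gave 738 lower and 17 higher without the replicate block, and 2217 lower and 1033 higher with the replicate block, where 1 residual degree of freedom is left and the share of rises was larger. Without the replicate block in the full fit 75 genes were higher and 1220 lower. All 17 libraries with batch gave 62 higher, and an adjusted p under 0.05 gave 75 higher. Leaving out each library in turn gave 639 to 914 lower and 32 to 59 higher. The cause of these differences was not tested beyond the fewer samples or the stricter threshold that define them. Of 115 genes named with a call, no fold change turned its sign under any alternative, and 106 remained called without the replicate block. Those lost were PARD6G, JUNB, SRSF7, HSPB1, SMAD7, HNRNPA2B1, HNRNPH3, PABPN1 and MYC. Of the 115 calls, other alternatives lost more: 43 with mitochondrial scaling, 33 with the minimum fold change of 1.5, 26 with the 4 libraries of 2 h without the block, and 20 to 25 with a library left out, HSPA5, SOX9, HEXIM1, CDX2 and CENATAC among them. All 17 libraries lost 10, and library size and the DESeq2 Wald test 3 each. The scaling alternatives moved list medians by at most 0.12, and the medians of 13 of 54 lists, none further from 0 than 0.19, changed sign under some alternative.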
